A study of Mus musculus with 6 samples.

Results

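The 10 genes described here encode enzymes, cofactors and readers of methylation on histone H3 lysine 9 (H3K9): the methyltransferases *Ehmt1*, *Ehmt2*, *Setdb1*, *Suv39h1* and *Suv39h2*, the cofactors *Wiz* and *Trim28*, and the heterochromatin proteins *Cbx1*, *Cbx3* and *Cbx5*. They were chosen by name for these roles from 55401 genes listed for every library. No measured value entered the rule, but earlier results of these data were known when it was made. Their levels came from poly(A) RNA-seq of 6 libraries of the mouse embryonic stem cell (mESC) line 46C, at 2 libraries for each of 3 groups. By the labels, the cells stably expressed a biotin tag alone (control), biotin-Rbbp4 (Rbbp4 OE) or biotin-Rbbp7 (Rbbp7 OE). The methods of the study describe 46C cells with the biotin ligase BirA that were infected with lentivirus for the empty tag vector or for either tagged protein. They do not say in so many words that the sequenced libraries came from those cells. RBBP4 and RBBP7 are closely related histone-binding proteins found in several chromatin complexes. The methods give selection with puromycin and describe no picking of clones, and the labels give no treatment for any group. The labels do not say whether the 2 libraries of a group came from separate cultures, so every p-value below measures only the spread between these libraries.

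Methylation of H3K9 marks silent chromatin. G9a (EHMT2) and GLP (EHMT1) work as a pair that places most of the mono- and dimethylation in euchromatin, and the zinc finger protein WIZ helps to hold that pair on chromatin. SETDB1 places trimethylation at endogenous retroviruses, where it is brought by TRIM28 (KAP1), which is in turn recruited by KRAB zinc finger proteins. SUV39H1 and SUV39H2 place trimethylation at the repeats around centromeres. The HP1 proteins, HP1 alpha (CBX5), HP1 beta (CBX1) and HP1 gamma (CBX3), bind the methylated lysine. In mESCs this machinery keeps retroviruses and many germline genes silent, and RBBP4 has been studied for its part in it. The comparisons below ask whether a surplus of RBBP4 or RBBP7 mRNA went with a change in the mRNAs of the machinery itself.

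The transgenes were visible in the libraries. *Rbbp4* stood at 270.6 ± 0.870 TPM (a length-scaled share of all transcripts, given as mean ± SD, n = 2) in Rbbp4 OE against 146.5 ± 0.693 TPM in control, and *Rbbp7* stood at 736.4 ± 16.5 TPM in Rbbp7 OE against 237.8 ± 0.997 TPM in control. All 10 mESC markers looked at were above 1 TPM in every library, *Pou5f1* and *Nanog* among them, with a sum of 8021 to 8890 TPM. The 6 primitive endoderm markers, *Gata6* among them, summed to 0.63 to 3.29 TPM and the 6 trophoblast markers to 11.02 to 15.33 TPM. Within the trophoblast sum, single genes moved in opposite directions. *Eomes* was higher than control on the log2 scale, by 0.41 in Rbbp4 OE and by 0.84 in Rbbp7 OE. *Cdx2* (-0.52, then -0.53) and *Gata3* (-0.54, then -0.49) were lower, in the same order of groups. None of these 3 passed the test used below against control, with *Eomes* in Rbbp7 OE closest (limma adjusted p = 0.0689). The 5 neural markers summed to 104 to 105 TPM in control, 120 to 122 TPM in Rbbp4 OE and 94.9 to 96.5 TPM in Rbbp7 OE, with *Neurog2* listed at 0 throughout. Most of that sum was the single gene *Tubb3*, at 96.8 to 99.0 TPM, 113.1 to 114.3 TPM and 89.5 to 91.0 TPM in the same order of groups. The 6 fibroblast markers summed to 4.48 to 5.59 TPM in control, 9.09 to 11.3 TPM in Rbbp4 OE and 8.75 to 15.5 TPM in Rbbp7 OE, with *Postn* and *Lum* listed at 0 throughout. In Rbbp4 OE most of that sum was *Thy1* (8.87 and 10.80 TPM). In Rbbp7 OE *Col3a1* was listed at 6.39 TPM in the first library and at 0.06 TPM in the second. In Rbbp4 OE, 3 of the 10 mESC markers passed the test used below (*Pou5f1* higher, *Nanog* and *Tfcp2l1* lower). Of the 3 fibroblast markers tested, 1 passed (*Thy1*, higher). Of all genes tested, 11.4% passed in this comparison. The median log2 fold change of the mESC markers was -0.14 there, while their sum was weighted by *Dppa5a*, at 4166 to 5134 TPM across the libraries. The part of these shifts in the results below was not tested. The second control library read 0.159 higher on the log2 scale than the first as the median of the 10 genes, and 0.0873 higher over all genes tested. TPM keeps no sequencing depth, so depth is unknown and no counting interval is given.

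TPM is scaled by transcript length, so levels of different genes can be set side by side. *Trim28* was the most abundant of the 10 in every library, between 1403 and 1626 TPM, which placed it between rank 100 and rank 124 of all genes listed. In control it lay 8.42-fold above *Cbx3*, the next of the set. *Cbx3* (169.8 to 199.3 TPM), *Cbx1* (122.9 to 151.1 TPM) and *Ehmt2* (103.5 to 116.5 TPM) followed in that order in all 3 groups, and none of these neighbours overlapped within a group. *Setdb1* and *Cbx5* were next and their control libraries overlapped, as did those of *Wiz* and *Ehmt1*. *Suv39h1* and *Suv39h2* were lowest, between 10.04 and 16.58 TPM, at ranks from 5741 to 6975. They overlapped in control, whereas in both overexpression groups no neighbours in the order overlapped and *Suv39h2* lay above *Suv39h1*. All 10 genes had a mean above 0.5 TPM, the filter for testing.

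**Figure D1:**
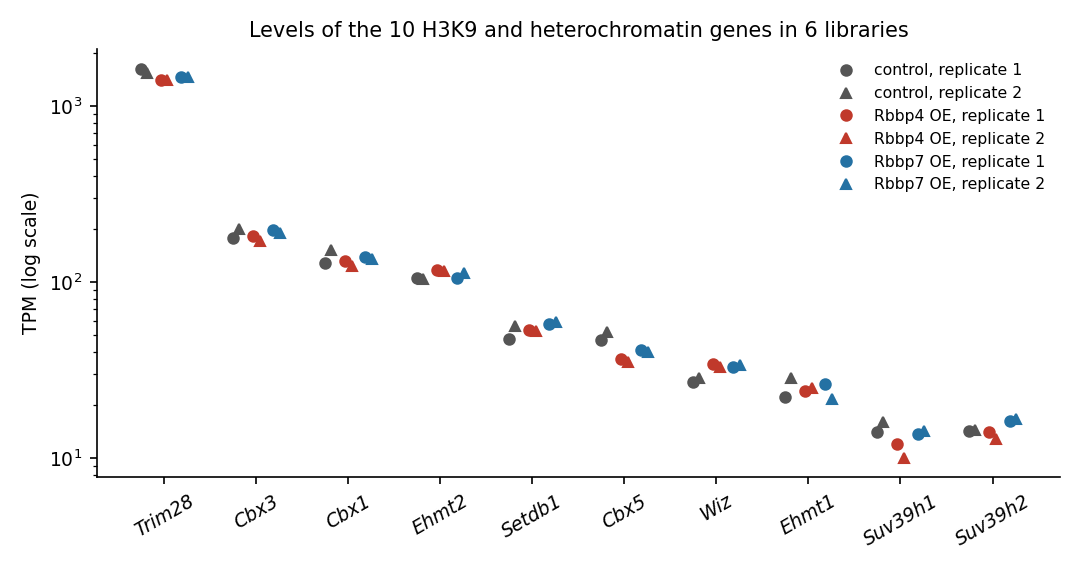
TPM on a log axis for each of the 10 genes, ordered by level, in the 6 libraries; colour gives the group and the symbol gives the replicate, with 1 point per library. *Trim28* lies far above the others, and for *Cbx5* both Rbbp4 OE libraries (36.37 and 35.08 TPM) lie below both control libraries (46.76 and 51.80 TPM).

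In Rbbp4 OE against control, 2 of the 10 genes passed an adjusted p of 0.05, *Cbx5* and *Trim28*, and both were lower. Across all 14156 genes tested, 11.4% passed in this comparison, 8.07% lower and 3.29% higher, so the count for the 10 genes is read against that background. No member met an adjusted p below 0.01 together with a fold change above 2, a rule that 0.516% of all genes met. The median log2 fold change of the 10 was -0.086, beside -0.077 for all genes, and their median absolute change was 0.136, beside 0.233. The libraries of *Wiz* and *Ehmt2* lay wholly above control and those of *Suv39h1* and *Suv39h2* wholly below, without passing. With *Cbx5* and *Trim28* this made 2 genes wholly above and 4 wholly below, where 20.8% of all genes lay wholly above and 37.1% wholly below. At an unadjusted p below 0.05 there were 4 members, *Cbx5*, *Trim28*, *Suv39h1* and *Wiz*, where 29.6% of all genes reached that level. The test was limma-trend on log2(TPM + 1) with Benjamini-Hochberg adjustment over all genes tested, and fold changes are on that scale. With 2 libraries a side, an exact permutation test of a single gene cannot go below 0.333. In bulk RNA, fewer cells of one kind and less RNA per cell cannot be told apart.

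In Rbbp7 OE against control, none of the 10 genes passed, where 0.487% of all genes did, and none met the rule with a fold change above 2, which 0.0353% met. At an unadjusted p below 0.05 there were 3, *Cbx5*, *Trim28* and *Wiz*, where 15.4% of all genes did. The libraries of *Setdb1*, *Wiz* and *Suv39h2* lay wholly above control, as for 21.2% of all genes, and those of *Cbx5* and *Trim28* wholly below, as for 23.4%. The median of the 10 was 0.013, beside -0.0037 for all genes, and its sign changed with the library left out (-0.060 to 0.10). Between Rbbp4 OE and Rbbp7 OE, again none of the 10 passed, where 0.304% of all genes did (0.177% higher and 0.127% lower), and none met the rule with a fold change above 2, which 0.0494% met. *Suv39h2* was the 1 member with an unadjusted p below 0.05, where 19% of all genes had one. In that comparison *Ehmt2* lay wholly above, as for 16.1% of all genes, and 7 members lay wholly below, as for 38.6%: *Cbx1*, *Cbx3*, *Cbx5*, *Setdb1*, *Suv39h1*, *Suv39h2* and *Trim28*. The 2 comparisons with control share the same 2 control libraries, so their values are given side by side for each gene and are not independent.

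**Figure D2:**
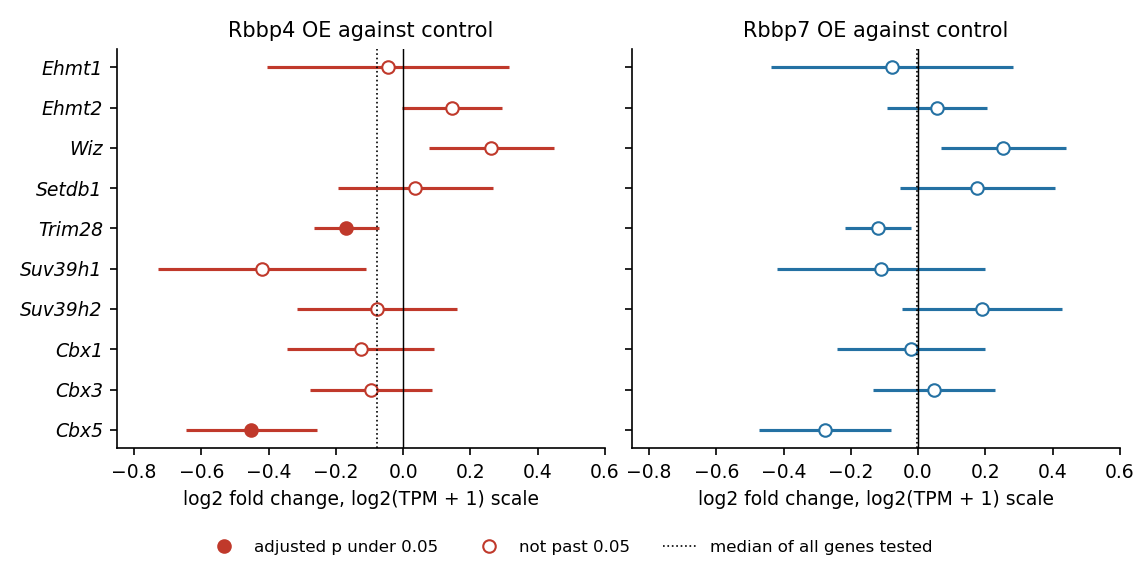
Log2 fold change of each of the 10 genes on the log2(TPM + 1) scale, against control, for Rbbp4 OE on the left and Rbbp7 OE on the right; bars are 95% confidence intervals from limma with 2 libraries a group, filled points passed an adjusted p of 0.05 and the dotted line is the median of all genes tested. *Cbx5* (-0.45) and *Trim28* (-0.17) are the filled points on the left, and no point is filled on the right.

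Of the G9a and GLP group, no gene passed in any comparison. *Ehmt2* (chr17:34898469-34914052, plus strand) encodes G9a and stood at 105.5 and 103.5 TPM in control, at 116.5 and 114.6 TPM in Rbbp4 OE and at 104.6 and 112.8 TPM in Rbbp7 OE. The Rbbp4 OE libraries lay above both the other groups, and the Rbbp7 OE libraries overlapped control. The log2 difference from control was 0.14 in Rbbp4 OE (95% interval -0.0039 to 0.29, limma adjusted p = 0.179) and 0.056 in Rbbp7 OE (limma adjusted p = 0.722).

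*Ehmt1* (chr2:24789928-24919614, minus strand) encodes GLP and stood at 22.17 and 28.55 TPM in control, at 23.92 and 24.82 TPM in Rbbp4 OE and at 26.16 and 21.65 TPM in Rbbp7 OE. Rbbp4 OE lay inside the wide control range and Rbbp7 OE overlapped it. The intervals of the difference ran from -0.40 to 0.32 in Rbbp4 OE and from -0.44 to 0.28 in Rbbp7 OE, which leaves room for changes of either sign. *Ehmt2* made up 80.5% ± 3.01 of the summed TPM of the pair in control, 82.6% ± 0.544 in Rbbp4 OE and 81.9% ± 2.77 in Rbbp7 OE (SD, n = 2), and these groups overlapped.

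*Wiz* (chr17:32354055-32389439, minus strand) stood at 27.01 and 28.56 TPM in control, at 34.08 and 32.97 TPM in Rbbp4 OE and at 32.92 and 33.67 TPM in Rbbp7 OE. All 4 overexpression libraries were above both controls. The log2 differences of 0.26 in Rbbp4 OE (95% interval 0.08 to 0.45, limma adjusted p = 0.0773) and 0.25 in Rbbp7 OE (0.07 to 0.44, limma adjusted p = 0.215) did not pass. The 2 overexpression groups differed from each other by 0.0095 (-0.18 to 0.20). With median-of-ratios scaling or quantile normalization, *Wiz* passed in Rbbp4 OE, at 0.36 under both (limma adjusted p = 0.0325 and 0.0316). An RNA on the opposite strand, *Gm26858*, shares 22.1% of the exonic bases of *Wiz*, and whether reads were counted by strand is not given in the sources used here.

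Of the SETDB1 and TRIM28 pair, *Trim28* passed in Rbbp4 OE and *Setdb1* passed in no comparison. *Trim28* (chr7:12999114-13031035, plus strand) encodes KAP1 and stood at 1625.6 and 1538.2 TPM in control, at 1410.7 and 1403.4 TPM in Rbbp4 OE and at 1453.9 and 1458.0 TPM in Rbbp7 OE. Every overexpression library was below both controls, and the replicates of each overexpression group were closer to each other than the controls were. *Trim28* fell by 0.17 on the log2 scale in Rbbp4 OE (95% interval -0.27 to -0.07, SE 0.0400, limma adjusted p = 0.0491), a level 0.890 times that of control. In Rbbp7 OE the log2 difference was -0.12 (-0.22 to -0.02, limma adjusted p = 0.244), and the groups differed from each other by -0.049 (limma adjusted p = 0.535).

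This small shift of *Trim28* depended on the scaling, in both directions. With median-of-ratios scaling it was -0.067 (limma adjusted p = 0.584), and with quantile normalization it was -0.25 (limma adjusted p = 0.0121). A correction for GC content and length, added after the data were seen, gave -0.29 (limma adjusted p = 0.00879). With centring it was -0.23 (limma adjusted p = 0.0560) and did not pass. Of 18 other ways of scaling, filtering or fitting the values, with each library left out in turn among them, it passed in 5. Median-of-ratios scaling moved the median of all genes from -0.077 to 0.0059. The start of *Trim28*, shown because this was 1 of the 2 genes that passed, lies in a window of 300 bases (RefSeq, GRCm38.p6, chr7:13023902-13024201, plus strand, 250 bases before to 50 after the start, 5′ to 3′, CpG in capitals), downstream of where the GENCODE gene model begins.
Trim28: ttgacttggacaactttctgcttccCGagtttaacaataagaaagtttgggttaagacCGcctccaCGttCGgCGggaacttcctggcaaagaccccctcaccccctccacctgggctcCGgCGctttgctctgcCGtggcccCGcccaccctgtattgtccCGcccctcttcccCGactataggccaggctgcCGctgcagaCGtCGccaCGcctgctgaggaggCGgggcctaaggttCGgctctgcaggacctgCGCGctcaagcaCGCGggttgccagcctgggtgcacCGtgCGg

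That window holds 23 CpG dinucleotides, more than in 78.5% of the 32851 promoter windows of RefSeq, of which 94.6% hold at least 1 and whose median is 7. CpG reads the same on both strands, and the count is a description of the sequence only.

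*Setdb1* (chr3:95323525-95357202, minus strand), the methyltransferase that TRIM28 brings to retroviruses, stood at 47.38 and 56.32 TPM in control, at 53.57 and 52.49 TPM in Rbbp4 OE and at 57.58 and 59.45 TPM in Rbbp7 OE. Rbbp4 OE lay inside the control range and Rbbp7 OE above it. The log2 difference was 0.037 (95% interval -0.19 to 0.27, limma adjusted p = 0.832) in Rbbp4 OE and 0.18 (-0.05 to 0.41, limma adjusted p = 0.437) in Rbbp7 OE. *Trim28* mRNA exceeded *Setdb1* mRNA 24.5-fold to 34.3-fold across the libraries. *Setdb1* shares a near-identical stretch with 1 other annotated RNA, *Gm4349*, listed at up to 23.1 TPM, between which reads could have been split.

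Neither of the SUV39H enzymes passed. *Suv39h1* (chrX:8061171-8074760, minus strand) stood at 14.07 and 16.06 TPM in control, at 12.02 and 10.04 TPM in Rbbp4 OE and at 13.58 and 14.14 TPM in Rbbp7 OE. Rbbp4 OE lay below both other groups, and Rbbp7 OE overlapped control. The log2 difference of -0.42 in Rbbp4 OE (95% interval -0.73 to -0.11, limma adjusted p = 0.0851) was close in size to that of *Cbx5* but had a larger error, and it passed under none of the 18 alternatives. In Rbbp7 OE the value was -0.11 (limma adjusted p = 0.740). *Suv39h1* shares 14.6% of its exonic bases with the antisense RNA *Gm14820*, listed at 18.92 and 14.17 TPM in control and at 19.42 and 18.78 TPM in Rbbp4 OE. The level of *Suv39h1* is uncertain to that extent.

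*Suv39h2* (chr2:3455815-3475031, minus strand) stood at 14.16 and 14.36 TPM in control, at 14.11 and 12.85 TPM in Rbbp4 OE and at 16.23 and 16.58 TPM in Rbbp7 OE. The Rbbp4 OE libraries were below and the Rbbp7 OE libraries above both controls. The log2 differences from control were -0.077 (95% interval -0.32 to 0.16, limma adjusted p = 0.646) and 0.19 (-0.05 to 0.43, limma adjusted p = 0.422). The overexpression groups differed by -0.27 (-0.50 to -0.03), which did not pass after adjustment (limma adjusted p = 0.228). *Suv39h2* shares 8.10% of its exonic bases with *Dclre1c* on the opposite strand, listed at 2.97 to 4.33 TPM. *Suv39h1* made up 51.3% ± 2.09 of the summed TPM of the pair in control, 44.9% ± 1.51 in Rbbp4 OE and 45.8% ± 0.335 in Rbbp7 OE (SD, n = 2), and all 4 overexpression libraries had a lower share than both controls.

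Of the HP1 genes, *Cbx5* passed in Rbbp4 OE and the other two passed in no comparison. *Cbx5* (chr15:103191544-103239816, minus strand) encodes HP1 alpha and stood at 46.76 and 51.80 TPM in control, at 36.37 and 35.08 TPM in Rbbp4 OE and at 41.12 and 39.77 TPM in Rbbp7 OE. The 3 groups did not overlap, with Rbbp4 OE lowest and Rbbp7 OE in between. *Cbx5* fell by 0.45 on the log2 scale in Rbbp4 OE (95% interval -0.65 to -0.26, SE 0.0802, limma adjusted p = 0.0245), a level 0.731 times that of control. In Rbbp7 OE the difference was -0.28 (-0.47 to -0.08, limma adjusted p = 0.204), and Rbbp4 OE differed from Rbbp7 OE by -0.17 (-0.37 to 0.02, limma adjusted p = 0.303).

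The longest transcript of *Cbx5* has 8803 nt, the most among the 10 genes. The control libraries differed from each other with transcript length: genes with over 4000 nt read 0.187 higher in the second than in the first as a median, and genes under 1000 nt differed by -0.0241. A correction of each library for GC content and length, added after the data were seen, left *Cbx5* at -0.26 in Rbbp4 OE (limma adjusted p = 0.0568), and with centring at -0.21 (limma adjusted p = 0.116). Over 18 alternatives the difference was between -0.52 and -0.21, and it passed in 9.

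*Cbx5* starts head to head with *Hnrnpa1*, an abundant RNA-binding protein gene, with 616 bases between the annotated starts. *Hnrnpa1* stood at 1086.7 and 1165.7 TPM in control, at 934.9 and 929.2 TPM in Rbbp4 OE and at 1022.8 and 1021.1 TPM in Rbbp7 OE, the same order of groups as *Cbx5*. It fell by 0.27 on the log2 scale in Rbbp4 OE (limma adjusted p = 0.0208) and read -0.14 in Rbbp7 OE (limma adjusted p = 0.235). In Rbbp4 OE it passed in 9 of 18 alternatives, with values from -0.38 to -0.11. *Hnrnpa1* has 9 near-identical pseudogenes, the highest listed at 13.1 TPM. Both start windows are shown because the 2 neighbours were both lower (RefSeq, GRCm38.p6, 250 bases before to 50 after the start, each 5′ to 3′ on its own strand, CpG in capitals): *Cbx5* at chr15:103239803-103240102 on the minus strand and *Hnrnpa1* at chr15:103240147-103240446 on the plus strand.
Cbx5: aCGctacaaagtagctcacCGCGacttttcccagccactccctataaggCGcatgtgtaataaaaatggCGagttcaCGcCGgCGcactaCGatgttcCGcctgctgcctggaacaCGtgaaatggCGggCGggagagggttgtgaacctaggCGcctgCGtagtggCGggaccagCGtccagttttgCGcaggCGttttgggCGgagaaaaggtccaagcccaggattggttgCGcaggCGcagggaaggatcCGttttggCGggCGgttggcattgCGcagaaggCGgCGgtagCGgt
Hnrnpa1: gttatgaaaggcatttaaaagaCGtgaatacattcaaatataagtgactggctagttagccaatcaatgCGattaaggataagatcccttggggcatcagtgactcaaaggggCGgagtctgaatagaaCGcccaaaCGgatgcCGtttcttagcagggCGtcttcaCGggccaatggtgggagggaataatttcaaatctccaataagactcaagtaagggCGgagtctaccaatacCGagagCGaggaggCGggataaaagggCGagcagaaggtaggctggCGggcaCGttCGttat

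The *Cbx5* window shown holds 29 CpG, more than 87.1% of all windows, and that of *Hnrnpa1* holds 16, more than 67.0%. A second RefSeq window of *Cbx5*, at chr15:103215303-103215602 and not shown, holds 8 CpG, more than 51.35%. *Cbx3* has a divergent neighbour of the same family, *Hnrnpa2b1*, with 466 bases between the starts. There neither gene passed in either comparison with control: *Hnrnpa2b1* read 0.036 (limma adjusted p = 0.669) in Rbbp4 OE and 0.10 (limma adjusted p = 0.381) in Rbbp7 OE. In Rbbp4 OE *Hnrnpa2b1* passed in 2 of 18 alternatives, with values from -0.024 to 0.23.

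*Cbx3* (chr6:51470360-51483704, plus strand), which encodes HP1 gamma, stood at 176.7 and 199.3 TPM in control, at 181.5 and 169.8 TPM in Rbbp4 OE and at 197.5 and 190.2 TPM in Rbbp7 OE. Both overexpression groups overlapped control. The log2 difference was -0.096 (95% interval -0.28 to 0.09) in Rbbp4 OE and 0.047 (-0.13 to 0.23) in Rbbp7 OE. *Cbx3* has 9 near-identical copies, of which *Cbx3-ps6* was listed highest at 14.9 TPM, so a small part of its level could lie in them.

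*Cbx1* (chr11:96789127-96808640, plus strand), which encodes HP1 beta, stood at 127.3 and 151.1 TPM in control, at 131.1 and 122.9 TPM in Rbbp4 OE and at 138.6 and 134.8 TPM in Rbbp7 OE. Both overexpression groups overlapped control. The log2 difference was -0.13 (95% interval -0.35 to 0.09) in Rbbp4 OE and -0.021 (-0.24 to 0.20) in Rbbp7 OE.

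A share of the summed HP1 TPM removes what the 3 genes have in common in a library. It does not remove an effect that depends on transcript length. The longest transcript has 8803 nt for *Cbx5*, 2377 nt for *Cbx1* and 2926 nt for *Cbx3*. *Cbx5* made up 13.3% and 12.9% of that sum in control, 10.4% and 10.7% in Rbbp4 OE, and 10.9% in both libraries of Rbbp7 OE. The share was thus lower in all 4 overexpression libraries than in both controls, and the overexpression groups lay close together. *Cbx3* made up 49.96% ± 0.572 in control, 51.9% ± 0.156 in Rbbp4 OE and 52.3% ± 0.149 in Rbbp7 OE (SD, n = 2), and *Cbx1* 36.9% ± 0.890, 37.5% ± 0.0443 and 36.8% ± 0.147. The summed level of the HP1 genes was 376 ± 36.3 TPM in control, 338 ± 15.0 TPM in Rbbp4 OE and 371 ± 8.80 TPM in Rbbp7 OE. These shares are descriptions and were not tested.

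**Figure D3:**
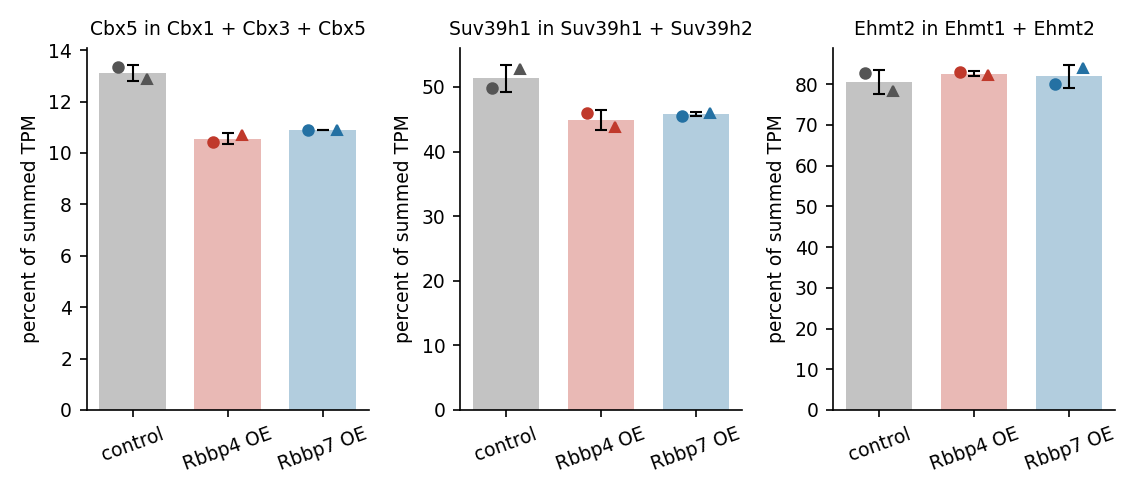
Percent of the summed TPM of 3 paralog groups taken by *Cbx5*, *Suv39h1* and *Ehmt2* in each group; bars are means from 0, error bars are SD (n = 2) and points are single libraries. The *Cbx5* share is 13.1% in control, 10.6% in Rbbp4 OE and 10.9% in Rbbp7 OE, the *Suv39h1* share is 51.3% in control, 44.9% in Rbbp4 OE and 45.8% in Rbbp7 OE, and the *Ehmt2* share overlaps between groups.

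**Figure D4:**
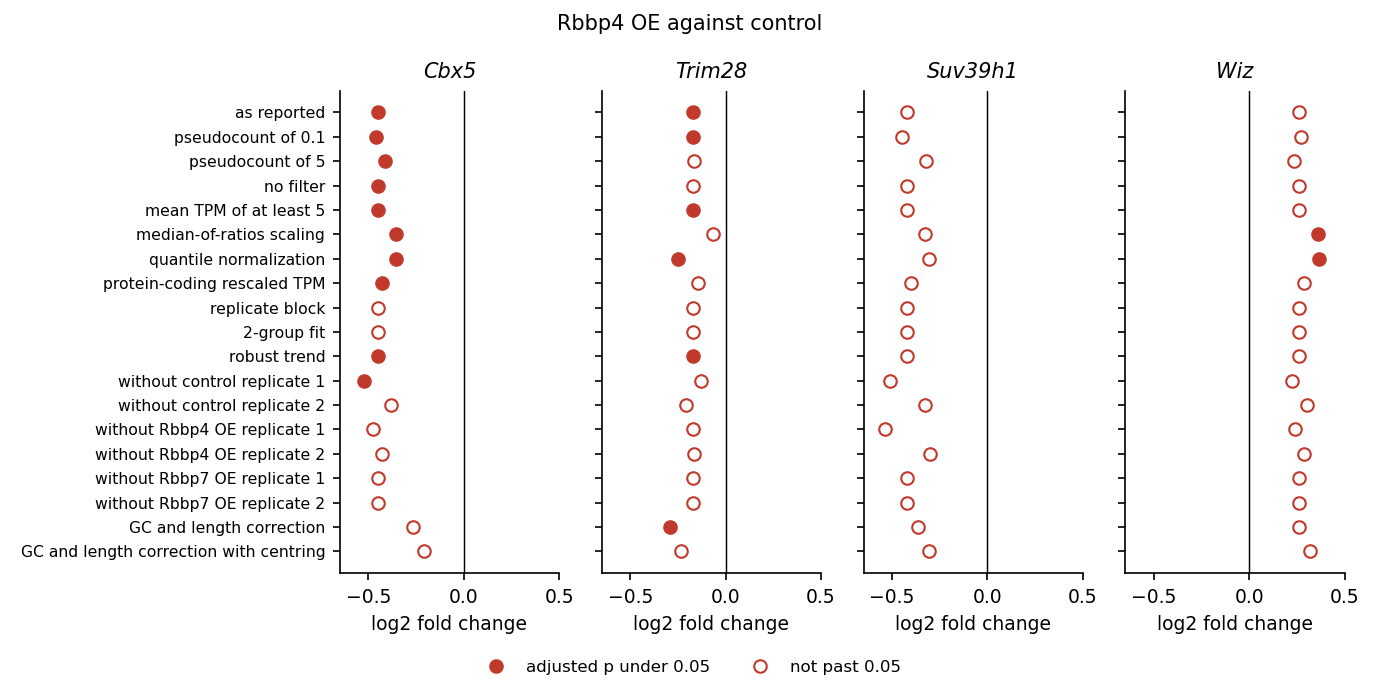
Log2 fold change in Rbbp4 OE against control of the 4 members with an unadjusted p below 0.05, under the reported analysis and 18 alternatives; filled points passed an adjusted p of 0.05. All points of *Cbx5*, *Trim28* and *Suv39h1* lie below 0 and all points of *Wiz* above, while the filled points come and go, with 9 alternatives for *Cbx5*, 5 for *Trim28*, 2 for *Wiz* and none for *Suv39h1*.

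The rest of the pathway was followed through lists of genes grouped by role. Of 10 other H3K9 methyltransferases and cofactors, none passed in either comparison with control, with a median of -0.30 on the log2 scale in Rbbp4 OE and of -0.081 in Rbbp7 OE. Values ran from *Mecom* (-0.56, limma adjusted p = 0.161) to *Atf7ip2* (0.26, limma adjusted p = 0.343) in Rbbp4 OE, and from *Prdm16* (-0.47, limma adjusted p = 0.476) to *Atf7ip2* (0.24, limma adjusted p = 0.542) in Rbbp7 OE. *Atf7ip2* is a relative of the SETDB1 cofactor ATF7IP. Of 11 H3K9 demethylases, 10 were tested and none passed, with medians of -0.061 and 0.030. Values ran from *Phf8* (-0.31, limma adjusted p = 0.0953) to *Phf2* (0.072) in Rbbp4 OE and from *Kdm4a* (-0.020) to *Jmjd1c* (0.41, limma adjusted p = 0.330) in Rbbp7 OE.

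Of 5 genes of the HUSH complex and the Morc family, which silence retroviruses together with SETDB1, 1 passed in Rbbp4 OE, as lower, where 8.07% of all genes did. The medians were -0.21 in Rbbp4 OE and -0.023 in Rbbp7 OE. *Fam208a*, which encodes the HUSH subunit TASOR, stood at 19.98 and 21.53 TPM in control, at 15.27 and 13.50 TPM in Rbbp4 OE and at 17.66 and 15.96 TPM in Rbbp7 OE. It fell by 0.50 on the log2 scale in Rbbp4 OE (limma adjusted p = 0.0407) and read -0.29 in Rbbp7 OE (limma adjusted p = 0.296). In Rbbp4 OE it passed in 4 of 18 alternatives, with values from -0.58 to -0.25. Part of its sequence is shared with *Ccdc66*. *Morc3* had the lowest value in Rbbp4 OE (-0.57, limma adjusted p = 0.0778) and *Pphln1* the highest (-0.059), and in Rbbp7 OE *Pphln1* was again highest (0.27, limma adjusted p = 0.364). In Rbbp4 OE *Morc3* passed in 1 of 18 alternatives.

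Of 5 KRAB zinc finger proteins that recruit TRIM28, none passed in either comparison, with medians of 0.065 in Rbbp4 OE and 0.14 in Rbbp7 OE. Values ran from *Zfp932* (-0.25) to *Zfp809* (0.15) in Rbbp4 OE and from *Gm15446* (-0.17) to *Zfp57* (0.28, limma adjusted p = 0.193) in Rbbp7 OE. *Zfp57*, which protects imprinted regions, was the most abundant of those named, at 334.0 to 451.1 TPM. *Zfp932* and *Gm15446* are near-identical in part, so reads could have been split between them.

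Of 14 other heterochromatin proteins, 2 passed in Rbbp4 OE, both lower, where 8.07% of all genes passed as lower, and none passed in Rbbp7 OE. The medians were -0.13 and 0.013, beside -0.077 and -0.0037 for all genes. *Lbr*, an inner nuclear membrane protein that binds HP1, stood at 55.21 and 69.96 TPM in control, at 41.82 and 41.98 TPM in Rbbp4 OE and at 46.65 and 46.76 TPM in Rbbp7 OE. It fell by 0.56 on the log2 scale in Rbbp4 OE (limma adjusted p = 0.0345) and read -0.40 in Rbbp7 OE (limma adjusted p = 0.200). *Hells*, a remodeller needed for DNA methylation at repeats, stood at 61.70 and 67.69 TPM in control and at 47.91 and 50.36 TPM in Rbbp4 OE, and fell by 0.39 (limma adjusted p = 0.0298). Each of these passed in 8 of 18 alternatives, with values from -0.73 to -0.37 for *Lbr* and from -0.45 to -0.14 for *Hells*. *Atrx* had the lowest value (-0.60, limma adjusted p = 0.0574) and *H3f3a* the highest (0.18, limma adjusted p = 0.0807) in Rbbp4 OE, without passing. Of 18 alternatives there, *Atrx* passed in 2 and *H3f3a* in 3. In Rbbp7 OE *H3f3a* was again highest (0.13, limma adjusted p = 0.328).

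Of 14 germline genes, a class that H3K9 methylation helps to silence in mESCs, 11 were tested and 2 passed as higher in Rbbp4 OE, where 3.29% of all genes passed as higher. *Tuba3a*, a testis alpha-tubulin, stood at 71.00 and 68.62 TPM in control, at 108.0 and 110.7 TPM in Rbbp4 OE and at 71.94 and 77.30 TPM in Rbbp7 OE, and rose by 0.64 on the log2 scale (limma adjusted p = 0.00784). Its near-identical copy *Tuba3b* was listed at 1.14 to 4.50 TPM, and the split of reads between them is uncertain. *Tuba3a* was not silent in control, where every other gene of the 14 stood at 8.50 TPM or below. *Sycp3*, a component of the meiotic chromosome axis, stood at 5.95 and 6.45 TPM in control, at 11.16 and 10.68 TPM in Rbbp4 OE and at 6.14 and 7.55 TPM in Rbbp7 OE, and rose by 0.73 (limma adjusted p = 0.0290), with part of its sequence shared with *Chpt1*. *Tuba3a* passed in 16 of 18 alternatives and *Sycp3* in 9. The median of the 11 was 0.014 in Rbbp4 OE, where *Mael* had the lowest value (-0.18), and 0.011 in Rbbp7 OE, where values ran from *Magea4* (-0.51) to *Mael* (0.19). *Dazl*, often used to follow silencing of germline genes, read -0.054 (limma adjusted p = 0.846) and 0.038 (limma adjusted p = 0.942). None of the lists held a gene that passed in Rbbp7 OE, and between the overexpression groups only *Tuba3a* passed.

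**Figure D5:**
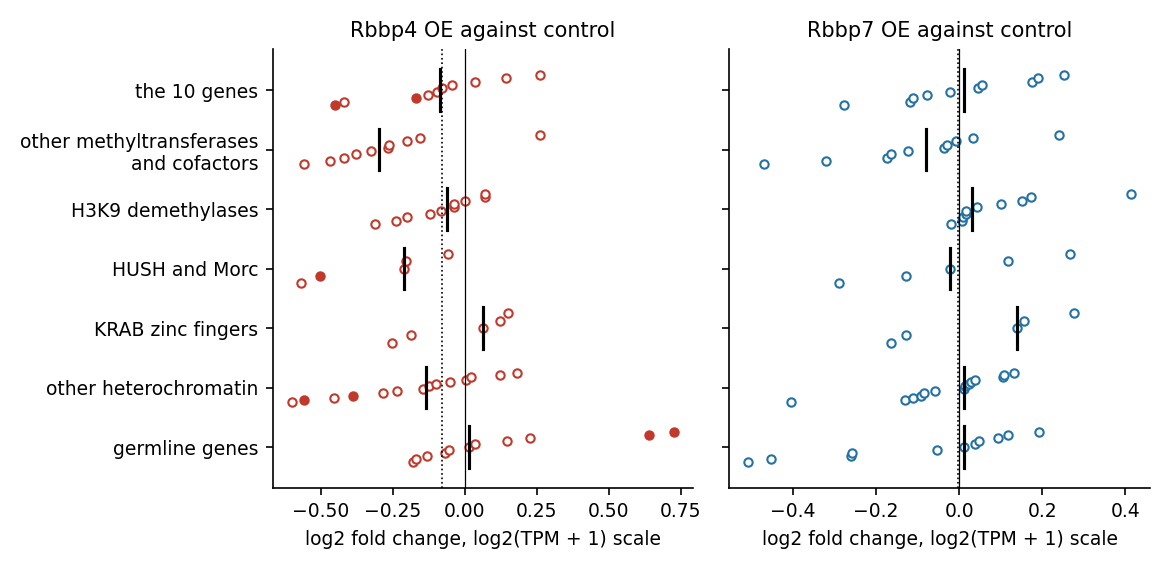
Log2 fold change against control on the log2(TPM + 1) scale for the 10 genes and for the 6 lists of the pathway, Rbbp4 OE on the left and Rbbp7 OE on the right (the x axes differ); points are genes, filled points passed an adjusted p of 0.05, black ticks are list medians and the dotted line is the median of all genes tested. On the left the filled points are *Cbx5*, *Trim28*, *Fam208a*, *Lbr* and *Hells* below 0 and *Tuba3a* and *Sycp3* above, and on the right none is filled.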

How the data were processed

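Per the study's methods, the authors used Trim_galore, STAR and RSEM on the mouse genome, and they deposited 1 table of TPM values per library. TPM divides by transcript length and fixes the total of a library, so depth is not kept. The members and lists were chosen with earlier results of these data known. Gene names and positions came from GENCODE M21 on GRCm38, matched by gene identifier without version: 55141 of 55401 genes matched. Genes with a mean of at least 0.5 TPM over the 6 libraries were tested with limma-trend (limma 3.58.1, R 4.3.3) on log2(TPM + 1), 2-sided, all 3 groups in 1 fit with 3 residual and 3.10 prior degrees of freedom, and Benjamini-Hochberg adjustment over 14156 genes. The study used DESeq2 on counts, which are not analysed here. Passed means an adjusted p below 0.05. Named were the 10 members, *Rbbp4*, *Rbbp7*, *Dazl*, both divergent neighbours, every listed gene that passed and the extremes of each list against control. Markers were given as counts and sums, with a few named. Near-identical copies had at least 95% identity over at least 200 nt (blastn 2.17.0). Alternatives changed the pseudocount (0.1, 5), the filter (none, 5 TPM), the scaling, the fit, the threshold and the libraries. Corrections for GC content and transcript length were added after the data were seen.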

Additional observations from a re-analysis of the deposited data

Results flagged for a closer look

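A gene was flagged if Rbbp4 OE and Rbbp7 OE differed at an adjusted p below 0.05 or lay wholly on opposite sides of control. The share of all genes meeting this rule was not counted, so a flag is not read as a result about the 10 genes. Taken singly, 37.1% of all genes lay wholly below control in Rbbp4 OE and 21.2% wholly above it in Rbbp7 OE. Of the 10 genes, 1 was flagged. *Suv39h2* differed by -0.27 on the log2 scale (limma adjusted p = 0.228), with both Rbbp4 OE libraries below and both Rbbp7 OE libraries above both controls, and the difference itself did not pass. The margin was small, with 14.11 TPM in the higher Rbbp4 OE library and 14.16 TPM in the lower control. *Suv39h1* differed more between the overexpression groups (-0.31) but was not flagged. The value of *Suv39h2* in Rbbp4 OE against control turned to 0.018 with median-of-ratios scaling and to 0.036 with quantile normalization.

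*Rbbp4* differed by 0.91 (limma adjusted p = 0.00192) and *Rbbp7* by -1.79 (limma adjusted p = 8.31e-05), the 2 transgenes themselves. *Tuba3a*, tested without its near-identical copy *Tuba3b*, differed by 0.55 (limma adjusted p = 0.0466) and passed in 3 of 18 alternatives. The cause of these differences was not tested.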

How the results depend on the processing

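Of the 10 genes, 2 passed in Rbbp4 OE against control, and this count rested on small margins. It was 1 with a pseudocount of 5, with no filter and with TPM rescaled to protein-coding genes outside the mitochondrial chromosome (*Cbx5* each time), and 1 with the correction for GC content and length (*Trim28*). It was 0 with that correction and centring, with a fit of only the 2 groups, and with an adjusted p below 0.01, with or without a fold change above 2. Leaving out 1 library gave 0 to 1 genes, the 1 being *Cbx5* without control replicate 1; each of these fits has fewer residual degrees of freedom and takes a lone library to vary like the other groups. With quantile normalization *Wiz* also passed, and with median-of-ratios scaling *Wiz* passed in place of *Trim28*. In Rbbp7 OE against control and between the overexpression groups, the count was 0 under all 20 alternatives. Over the alternatives the adjusted p ran from 0.0132 to 0.165 for *Cbx5* and from 0.00879 to 0.584 for *Trim28* in Rbbp4 OE. All-gene counts in that comparison were 1609 of 14156 genes tested (11.4%) as reported. They were 158 of 14156 (1.12%) with a fit of only the 2 groups, and 2039 of 9035 (22.6%) with a filter of 5 TPM.

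The replicate numbers did not pair the libraries (correlations of same-numbered deviations -0.026, 0.034 and -0.031). With a replicate block, 0 of the 10 genes passed in Rbbp4 OE, with an adjusted p of 0.0512 for *Cbx5* and 0.0878 for *Trim28*, and the count over all genes went from 1609 to 900, and from 69 to 9 in Rbbp7 OE against control and from 43 to 9 between the overexpression groups.

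Values that did not pass changed sign in these cases, and the cause was not tested. In Rbbp4 OE against control, with median-of-ratios scaling *Ehmt1* read 0.053, *Suv39h2* 0.018, *Cbx3* 0.0056 and *Pphln1* 0.036. With quantile normalization *Ehmt1* read 0.074, *Suv39h2* 0.036 and *Pphln1* 0.058. With the correction for GC content and length *Ehmt1* read 0.075, *Suv39h2* 0.086 and *Pphln1* 0.071, and with centring *Ehmt1* 0.13, *Suv39h2* 0.14, *Cbx3* 0.049 and *Pphln1* 0.13. In Rbbp7 OE against control, *Cbx1* read 0.0077 with quantile normalization, 0.0079 with protein-coding TPM, 0.027 with the GC and length correction and 0.015 with centring, *Ehmt2* read -0.030 and -0.041 with those corrections, and *Kdm4a* read 0.0085 with protein-coding TPM. Between the overexpression groups, centring turned *Setdb1* to 0.055 and *Cbx5* to 0.040, and median-of-ratios scaling turned *Trim28* to 0.048. Leaving out 1 library gave ranges on both sides of 0. In Rbbp4 OE against control these were -0.22 to 0.13 for *Ehmt1*, -0.085 to 0.16 for *Setdb1*, -0.17 to 0.32 for *Phf2*, -0.15 to 0.032 for *Pphln1*, -0.010 to 0.31 for *Zfp809* and -0.024 to 0.095 for *Hnrnpa2b1*. In Rbbp7 OE they were -0.25 to 0.098 for *Ehmt1*, -0.14 to 0.10 for *Cbx1*, -0.040 to 0.13 for *Cbx3*, -0.18 to 0.14 for *Kdm4a* and -0.44 to 0.11 for *Gm15446*. Between the overexpression groups they were -0.099 to 0.16 for *Ehmt1* and -0.014 to 0.033 for *Wiz*. The median of the 10 genes in Rbbp4 OE ran from -0.16 to 0.082, the latter with the GC and length correction and centring.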
